A study of Mus musculus with 32 samples.

Results

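The chemokine ligand genes were 40 of the 24411 genes listed for the CD11c-DTR libraries, and the same 40 were listed for the CX3CR1-DTR libraries. They were chosen by symbol alone, as every Ccl gene and every Cxcl gene followed by a number, together with Cx3cl1, Xcl1 and Pf4, which encodes platelet factor. The set held 24 genes of the CC class, 14 of the CXC class with Pf4, and 1 each of the CX3C and XC classes. In the mm9 coordinates of the files 12 members lay on chromosome 5, 12 on chromosome 11, 6 on chromosome 4 and 4 on chromosome 8.

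The study followed a monocyte graft into intestine that had been emptied of its macrophages. Recipients were C57BL/6J mice that had been lethally irradiated and reconstituted with BM of CD11c-DTR mice, in which the Itgax promoter drives the diphtheria toxin receptor, or of CX3CR1-DTR mice, and diphtheria toxin was given before transfer and every other day after it, so that the progeny groups came from recipients under continuing toxin. The graft (3 libraries) consisted of CD117- CD11b+ CD115+ Ly6C+ monocytes of Cx3cr1 gfp/+ CD45.1 donors, described as BM cells by the study's methods and as blood by the sample labels, and was not itself exposed to toxin. Its progeny came from colon on day 4 (3), day 8 (3) and day 12 (4), from ileum on days 4, 8 and 12 (4 each), and from colon of CX3CR1-DTR recipients (6, with no day in the labels and later than day 12 per the study's sample list). The labels give the progeny the gate CD45+ CD11b+ CD64+ Ly6C- MHCII+, whereas the study describes a sort of graft-derived cells by CD45.1 and GFP, and the labels of the CX3CR1-DTR libraries name GFP alone. By design all sorted cells derive from Cx3cr1 gfp/+ donors, in which 1 copy of the CX3CL1 receptor gene is replaced by GFP. The CD11c-DTR libraries came from 3 transfer experiments. The labels do not say whether libraries of a group and an experiment came from separate animals, so p-values measure the spread between libraries, part of which may be technical.

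Chemokines are small secreted or membrane-tethered proteins that direct leukocyte movement through G protein-coupled receptors. Inflammatory members such as the CXCR2 and CCR2 ligands are induced in tissue and draw neutrophils and monocytes, whereas homeostatic members such as Ccl25, Ccl21 and Cxcl12 are made by epithelial, lymphatic and stromal cells and position lymphocytes and other leukocytes. In the gut, macrophages are a source of several inflammatory chemokines, and the epithelium displays Ccl25 in the small intestine and CX3CL1 in both segments.

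Of the members, 28 had an entry in the RefSeq promoter table (GRCm38.p6, 250 bases before the annotated start, 1 entry per gene), and both strands of each were searched for the kappa B consensus and for a doubled GAAA (GAAA, any 2 bases, GAAA), a core shared by interferon-stimulated response elements. A kappa B match lay in 7 of 28 member promoters (Ccl1, Ccl20, Ccl9, Cxcl1, Cxcl10, Cxcl2 and Cxcl3) and in 7.07% of all 27025 promoters, and the doubled GAAA in 3 of 28 (Ccl19, Cxcl10 and Cxcl14) and in 3.06% of all. Shown are 5 promoters whose genes took different courses here, with the CXCR2 ligands Cxcl1 and Cxcl2, the CXCR3 ligand Cxcl10 and the CCR6 ligand Ccl20 on one side, and Ccl9, which was lower in progeny than in the graft, on the other. Capitals mark matches to either motif, and a match is a run of letters, not a binding site.
Cxcl1 (GRCm38.p6, chr5:90890995-90891244, plus strand): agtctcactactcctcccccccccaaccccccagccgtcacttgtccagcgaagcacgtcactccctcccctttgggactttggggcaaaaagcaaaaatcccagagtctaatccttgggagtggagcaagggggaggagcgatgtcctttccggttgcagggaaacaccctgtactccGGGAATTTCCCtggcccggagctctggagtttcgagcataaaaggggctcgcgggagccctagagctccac
Cxcl2 (GRCm38.p6, chr5:90903649-90903898, plus strand): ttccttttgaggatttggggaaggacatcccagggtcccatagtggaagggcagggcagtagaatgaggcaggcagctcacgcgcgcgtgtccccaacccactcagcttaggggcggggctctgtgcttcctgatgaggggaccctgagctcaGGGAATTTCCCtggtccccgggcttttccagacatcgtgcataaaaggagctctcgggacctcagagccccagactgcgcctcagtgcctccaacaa
Cxcl10 (GRCm38.p6, chr5:92348890-92349139, minus strand): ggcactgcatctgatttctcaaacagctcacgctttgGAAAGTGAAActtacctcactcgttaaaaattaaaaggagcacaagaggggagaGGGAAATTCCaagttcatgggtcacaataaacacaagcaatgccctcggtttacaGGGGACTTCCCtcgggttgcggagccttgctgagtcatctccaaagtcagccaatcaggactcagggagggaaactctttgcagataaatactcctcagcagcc
Ccl20 (GRCm38.p6, chr1:83116516-83116765, plus strand): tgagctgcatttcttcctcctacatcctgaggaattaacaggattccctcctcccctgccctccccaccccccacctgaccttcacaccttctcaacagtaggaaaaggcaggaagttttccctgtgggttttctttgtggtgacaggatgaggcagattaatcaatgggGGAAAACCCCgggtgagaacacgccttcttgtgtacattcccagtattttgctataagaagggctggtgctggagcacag
Ccl9 (GRCm38.p6, chr11:83578637-83578886, minus strand): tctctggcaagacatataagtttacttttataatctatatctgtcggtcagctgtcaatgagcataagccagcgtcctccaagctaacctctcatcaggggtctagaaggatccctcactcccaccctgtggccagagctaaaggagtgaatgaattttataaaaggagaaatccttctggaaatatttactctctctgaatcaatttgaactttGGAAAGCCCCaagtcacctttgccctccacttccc

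The Cxcl1 match began 71 bases and the Cxcl2 match 97 bases before the start, and Cxcl10 had kappa B matches at 159 and 104 bases and the doubled GAAA at 213 bases. The Ccl20 match at 80 bases and the Ccl9 match at 35 bases lay on the opposite strand. Letters of this kind were thus found both in genes that were higher in the progeny and in Ccl9.

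Between 591817 and 5228664 reads fell on genes in the CD11c-DTR libraries and between 1223772 and 4218027 in the CX3CR1-DTR libraries. Normalized reads are counts per 10000000 mapped reads, where a single read was worth 1.17 to 9.22 and the floor of 3 counts 3.51 to 27.65. A gene was tested if 3 or more libraries reached 50 normalized reads, which 28 members and 11842 genes in all did. Fixed marker lists, used to check the labelled cells, showed that progeny libraries held RNA of other cells. The 8 epithelial markers summed to 21.8-30.9 normalized reads in the graft, 70433-108897 in colon and 12773-87417 in ileum, and the 5 pan-leukocyte markers to 44348-51852, 1138-4468 and 2607-18334. The 8 macrophage markers summed to 8500-10951, 3680-21489 and 9586-103356 and were all detected in progeny, although Mertk stayed at or under 3 counts in the graft. T cell and intraepithelial lymphocyte markers summed to 17.4-22.5 in the graft, 7.83-35.6 in colon and 27.6-1037 in ileum, B and plasma cell markers to 236-262, 597-8428 and 3281-139119, and fibroblast markers to 0, 467-4667 and 199-4634. Several of these levels differed between graft, colon and ileum. Fibroblast ranges overlapped between colon and ileum, and macrophage ranges between graft and colon. The part of these levels in the results was not tested. In bulk samples, fewer cells of a type and less RNA per cell cannot be told apart. The ileum day 4 libraries of experiment 1 (replicates 2 and 3) stood apart, with colonic enterocyte markers at 25762 and 24091 normalized reads against 2189 and 2660 in the other 2 and 8343-16747 in colon of day 4.

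In the graft the chemokine ligand genes were led by Ccl6 and Ccl9, CC chemokines known to act on CCR1. Ccl6 (NM_009139, chr11:83401388-83406589) had 4966, 7132 and 3533 normalized reads in the 3 graft libraries, and Ccl9 (NM_011338, chr11:83386419-83392138) had 4129, 5602 and 3008. Ccl3, Cxcl2, Cxcl10, Ccl2 and Ccl4 followed with graft means of 508 ± 263 (SD, n = 3), 278 ± 234, 230 ± 34.6, 138 and 84.0 normalized reads, so that 7 members reached a mean of 50. Of the 28 tested members, 15 stayed at or under 3 counts in every graft library and 12 had no count at all. Summed over the members, with the copy Ccl21c left out, the graft held 10827 ± 2723 normalized reads (SD, n = 3), colon 5431 ± 470, 6050 ± 2810 and 9234 ± 3651 on days 4, 8 and 12, and ileum 12812 ± 3642, 14444 ± 6613 and 21557 ± 9715 (n = 3 to 4). Per kilobase of transcript, Ccl6 and Ccl9 led the graft with 3644 and 1414 normalized reads, and Pf4 led every progeny group but colon day 4, where Ccl6 had 974 and Pf4 955. Reads primed at the 3' end need not scale with length, so these per-kilobase levels only order the genes roughly.

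**Figure D1:**
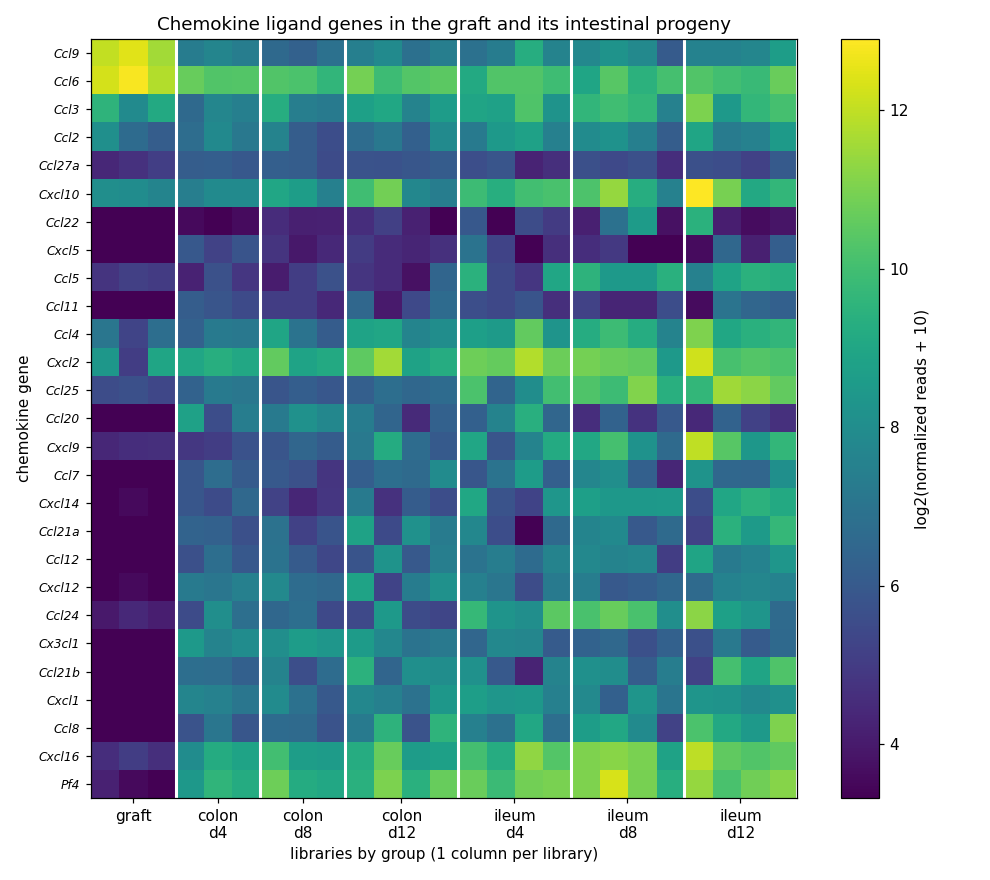
Heatmap of log2(normalized reads + 10) for 27 tested chemokine ligand genes (rows, Ccl21c omitted as a copy of Ccl21b) in the 25 libraries of the graft and of CD11c-DTR recipients (columns, by group). Ccl6 and Ccl9 are brightest in the 3 graft libraries, where 12 tested members had no count, while Pf4, Cxcl2 and Cxcl16 are bright across the progeny and Ccl25 and Ccl5 in most ileum libraries.

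From the graft to day 4, Ccl6 and Ccl9 were lower and most other tested members were higher. In edgeR's quasi-likelihood test, with Benjamini-Hochberg adjustment over all genes, 18 of 28 tested members were higher in colon of day 4 and 2 were lower, against 35.9% and 24.5% of all genes tested. In ileum of day 4, 23 were higher and 2 lower, against 36.2% and 20.5%. By day 12 the counts were 22 and 2 in colon (37.7% and 24.9% of all genes) and 26 and 2 in ileum (35.9% and 20.0%). All 4 comparisons share the graft libraries. Ccl21b and Ccl21c, identical in 24 of 25 libraries, were scored as 2 members in these counts and medians and in those below. The median log2 difference of the tested members was 5.46, 6.82, 5.68 and 7.38 in these comparisons, beside 0.21, 0.23, 0.24 and 0.22 over all genes. A member without counts in the graft could enter the test only through libraries in which it was high, so these counts describe the members and support nothing. Scaling to library totals instead of TMM moved the all-gene median of graft to ileum day 12 from 0.22 to -0.25 and the share of called genes that rose from 64.2% to 45.4%. In graft to colon day 4 that share moved from 59.5% to 48.4%, in graft to ileum day 4 from 63.8% to 47.5% and in graft to colon day 12 from 60.2% to 48.6%. Scaling to the 5 pan-leukocyte markers, an alternative chosen after seeing the data, moved the all-gene medians to 4.72 (colon day 4), 2.77 (ileum day 4), 4.61 (colon day 12) and 2.30 (ileum day 12).

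Ccl6 and Ccl9 were the 2 members that fell. Ccl9, an inflammatory chemokine that attracts CCR1-bearing myeloid cells, dropped to 151, 193 and 157 normalized reads in colon of day 4 and to 109, 154, 608 and 185 in ileum, with every progeny library below every graft library. Its log2 change was -4.32 ± 0.56 (SE, edgeR adjusted p = 6.93e-07) in colon and -3.61 ± 0.50 (edgeR adjusted p = 1.8e-06) in ileum. On day 12 it was -4.35 ± 0.50 and -3.62 ± 0.48, and scaling to the pan-leukocyte markers turned it to 0.12 in colon of day 4, where the all-gene median was 4.72. On that scale it was -1.21 (edgeR adjusted p = 0.0586) in ileum of day 4 and -0.09 (edgeR adjusted p = 0.884) in colon of day 12. Ccl6 had 1640, 1260 and 1277 normalized reads in colon of day 4 and 561, 1255, 1253 and 963 in ileum, again without overlap with the graft. Its log2 change was -1.57 ± 0.38 (edgeR adjusted p = 0.00119) and -1.92 ± 0.35 (edgeR adjusted p = 7.2e-05), and -1.56 ± 0.35 and -1.60 ± 0.35 on day 12, but under pan-leukocyte scaling the sign reversed to 2.99, 0.69, 2.90 and 0.43 in the same order. Set against 1000 pan-leukocyte reads, Ccl6 was 109 ± 40.0 (SD, n = 3) in the graft, 871 ± 499 in colon of day 4 (n = 3) and 177 ± 150 in ileum of day 4 (n = 4). Ccl3, Ccl4 and Ccl5, which lie in the same cluster on chromosome 11, behaved otherwise. Ccl3, made by activated macrophages, had 749, 229 and 547 normalized reads in the graft, 86.0, 199 and 167 in colon of day 4 and 469, 438, 1217 and 292 in ileum of day 4, and neither comparison passed (log2 -1.40 ± 0.68, edgeR adjusted p = 0.0785 and 0.72 ± 0.63, edgeR adjusted p = 0.346). It passed in ileum of day 12 (1.60 ± 0.64, edgeR adjusted p = 0.0359), although not without replicate 1 there, the library with the highest macrophage markers (1.04, edgeR adjusted p = 0.16). Leaving out graft replicate 2, graft replicate 3 or ileum day 12 replicate 4 also ended that call (edgeR adjusted p = 0.154, 0.0719 and 0.0575). Ccl4, an inflammatory CC chemokine encoded beside Ccl3, had 124, 29.1 and 99.3 normalized reads in the graft and 413, 359, 1558 and 300 in ileum of day 4, without overlap (3.45 ± 0.79, edgeR adjusted p = 0.000662). It did not pass in colon of day 4 (0.81 ± 0.78, edgeR adjusted p = 0.379), and its call in colon of day 12 (2.38 ± 0.75, edgeR adjusted p = 0.00844) ended without graft replicate 2 (1.94, edgeR adjusted p = 0.0515). Ccl5 passed in ileum of day 4 (4.24 ± 1.02, edgeR adjusted p = 0.00106) and not in colon of day 4 (0.33 ± 1.18, edgeR adjusted p = 0.821).

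The platelet factor gene Pf4 (NM_019932, chr5:91201461-91202409) was almost absent from the graft and among the most abundant members in the progeny. Its graft libraries had 8.42, 1.94 and 0 normalized reads, while colon of day 4 had 333, 759 and 578 and ileum of day 4 had 1687, 905, 1871 and 2018. The log2 change was 7.67 ± 0.93 (SE, edgeR adjusted p = 2.26e-07) and 9.28 ± 0.94 (edgeR adjusted p = 1.78e-08), or at least 77.7-fold and 226-fold against the mean graft floor of 7.17 normalized reads for 3 counts per library. The 5 platelet and megakaryocyte markers summed to 1.22-24.4 normalized reads in colon and 4.27-128 in ileum, with the highest sum in ileum day 8 replicate 2, the library that also held the most Pf4 (5050). Of these 5 markers Gp1ba, which encodes a platelet adhesion receptor, was at or under 3 counts in every CD11c-DTR library, while Itga2b, Gp9, Ppbp and Gp5 each passed 3 counts in some ileum library, and their part in the Pf4 level was not tested. Cxcl16, the membrane-bound ligand of CXCR6, took a like course, from 14, 23.3 and 14.5 in the graft to 242, 590 and 456 in colon of day 4 and 1047, 600, 2525 and 1298 in ileum (24.8-fold and 79.2-fold in the means, edgeR adjusted p = 1.13e-05 and 3.34e-07).

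The neutrophil-attracting ligands of CXCR2 differed in their starting point. Cxcl1 (NM_008176, chr5:91320271-91322141), whose promoter is shown above, had no count in the graft, 195, 175 and 124 normalized reads in colon of day 4 and 400, 320, 332 and 171 in ileum, at least 23.0-fold and 42.7-fold above the floor (edgeR adjusted p = 2.79e-07 and 3.88e-08). Cxcl2 (NM_009140, chr5:91332925-91334964), its neighbour, was present in the graft at 326, 23.3 and 484 normalized reads. It had 495, 631 and 529 in colon of day 4, which did not pass (log2 1.33 ± 0.80, edgeR adjusted p = 0.154), and 1733, 1591, 3557 and 1712 in ileum, which did (3.41 ± 0.83, edgeR adjusted p = 0.00123). Cxcl5 was a minor member, with means of 41.8 and 39.4 normalized reads on day 4 and none in the graft. The neutrophil markers summed to 7082-8822 normalized reads in the graft, 132-1218 in colon and 235-1160 in ileum. This list includes Mmp8, which the study names among its monocyte markers, so the sum in the monocyte graft need not come from neutrophils.

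Among the CCR2 ligands, which recruit monocytes, Ccl7 and Ccl12 had no count in the graft and Ccl2 did. Ccl2 had 261, 91.1 and 60.5 normalized reads in the graft and 96.8, 225 and 134 in colon of day 4, which overlap, and its change passed only in ileum of day 12 among the 4 graft comparisons (log2 1.64 ± 0.63, edgeR adjusted p = 0.0292). That call was lost without graft replicate 2 or 3 or ileum day 12 replicate 1 or 4 (edgeR adjusted p = 0.114, 0.131, 0.096 and 0.068). Ccl12 had 41.2, 101 and 52.9 normalized reads in colon of day 4 and 116, 158, 92.2 and 185 in ileum, at least 9.06-fold and 19.2-fold above the floor (edgeR adjusted p = 0.000123 and 1.17e-05). Ccl7 means were 67.7 and 152 on day 4. Ccl8, a ligand of CCR8 in mice, likewise started from no count and had 44.8, 127 and 48.8 in colon of day 4 and 168, 109, 525 and 99.9 in ileum (at least 10.3-fold and 31.5-fold, edgeR adjusted p = 0.00339 and 0.000269). By day 12 its 4 ileum libraries held 1148, 537, 343 and 2082 normalized reads, at least 143-fold above the floor.

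The eosinophil-attracting CCR3 ligand Ccl24 had 5.61, 11.6 and 7.27 normalized reads in the graft, 35.8, 255 and 102 in colon of day 4 and 839, 303, 258 and 1426 in ileum. It passed in both (log2 4.25 ± 1.34, edgeR adjusted p = 0.00889 and 6.71 ± 1.34, edgeR adjusted p = 0.000172), but in colon not without the library of 255 (3.24, edgeR adjusted p = 0.0556), nor on day 12 without colon replicate 2 (2.28, edgeR adjusted p = 0.112, against 3.91 with it). Its neighbour in function, Ccl11 (eotaxin), was low, with means of 47.6 and 33.0 on day 4 and no count in the graft. The interferon-induced CXCR3 ligands Cxcl9 and Cxcl10 did not pass in colon of day 4 (1.43 ± 1.22, edgeR adjusted p = 0.317 and 0.19 ± 0.87, edgeR adjusted p = 0.865). In ileum of day 4 both did, Cxcl9 rising from 11.2, 13.6 and 14.5 to 499, 47.0, 184 and 563 normalized reads and Cxcl10 from 258, 240 and 191 to 938, 632, 1023 and 1127. The Cxcl10 call was lost without graft replicate 2 or 3 (edgeR adjusted p = 0.052 and 0.0617). In colon of day 12 Cxcl10 passed with 985, 1853, 205 and 158 normalized reads (2.07 ± 0.85, edgeR adjusted p = 0.0369), a call that ended with the replicate block (1.90, edgeR adjusted p = 0.0608), without any 1 graft library (edgeR adjusted p = 0.0753-0.1), or without colon replicate 1 or 2 (2.03 and 1.18, edgeR adjusted p = 0.0554 and 0.206).

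Several homeostatic members were also higher in progeny than in the graft, and fibroblast and epithelial markers were higher beside them. Cxcl12, the stromal ligand of CXCR4, had 0, 1.94 and 0 normalized reads in the graft and 143, 127 and 171 in colon of day 4. Ccl21a, a CCR7 ligand of lymphatic endothelium, had none in the graft, 71.7, 68.2 and 40.7 in colon of day 4 and 205, 38.4, 0 and 85.6 in ileum. Ccl21b and Ccl21c held identical values in 24 of 25 libraries, 21 of them above 0, so their reads cannot be assigned to one copy and their levels are uncertain. Cx3cl1 (NM_009142, chr8:97296080-97306326), the membrane-bound ligand of CX3CR1, had no count in the graft and 342, 187 and 240 normalized reads in colon of day 4 (at least 35.8-fold, edgeR adjusted p = 1.32e-08). Ccl20, the CCR6 ligand of epithelium and activated myeloid cells, had none in the graft and 434, 38.5 and 155 in colon of day 4 (at least 29.2-fold, edgeR adjusted p = 6.82e-05). Ccl25 (NR_033527, chr8:4325210-4360020), the small-intestinal ligand of CCR9, stood at 36.5, 40.7 and 31.5 in the graft and at 64.2, 99.6, 81.6 and 92.4 in colon of day 12 (log2 1.57 ± 0.66, edgeR adjusted p = 0.0412), a call that ended with the replicate block (1.47, edgeR adjusted p = 0.0532) and without any 1 graft library or any of colon replicates 2 to 4 (edgeR adjusted p = 0.0651-0.102). Its call in colon of day 4 also rested on replicate 2 (1.99 with it, 1.71 and edgeR adjusted p = 0.0556 without it).

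**Figure D2:**
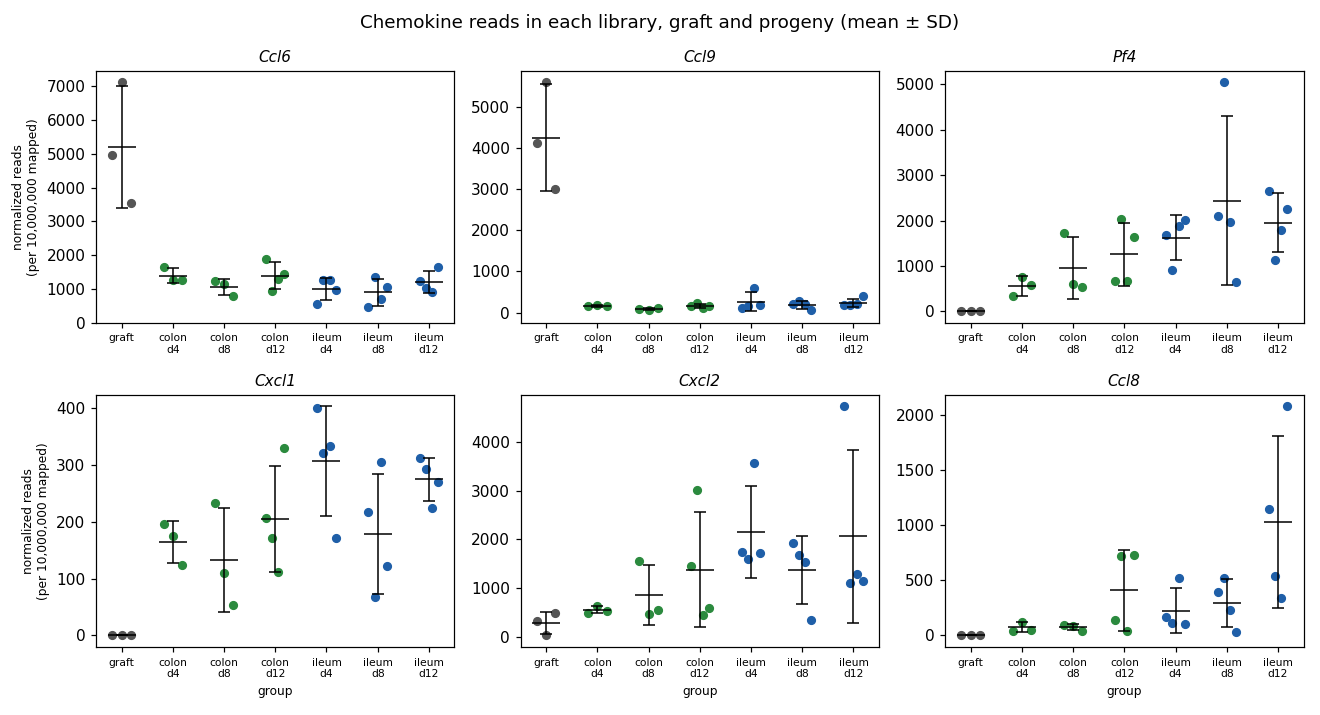
Normalized reads per 10000000 mapped reads (y axis) of Ccl6, Ccl9, Pf4, Cxcl1, Cxcl2 and Ccl8 in the graft and in colon and ileum by day (x axis). Points are libraries and bars the mean ± SD. Ccl6 and Ccl9 lie highest in the 3 graft libraries, Pf4, Cxcl1 and Ccl8 lie at or near 0 there, and Cxcl2 overlaps between graft and progeny.

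Between successive days no chemokine ligand gene passed in either segment. In edgeR's test 0 of 28 were called from day 4 to day 8 and from day 8 to day 12 in colon, and 0 in both steps in ileum, beside 0%, 0%, 5.13% and 0% of all genes. At an unadjusted p under 0.05 the members numbered 0, 5, 4 and 6, beside 204, 329, 2583 and 796 of 11842 genes. DESeq2 called 0, 0, 1 (Ccl20) and 0 members, beside 0, 0, 994 and 0 of 11841 genes. The values with the lowest p were nevertheless spread over some range. Ccl8 had 91.2, 88.7 and 44.5 normalized reads in colon of day 8 and 142, 726, 45.1 and 732 on day 12, a log2 difference of 2.62 ± 0.95 (edgeR adjusted p = 1). In ileum of day 12 it had 1148, 537, 343 and 2082 against 393, 526, 231 and 27.2 on day 8 (1.90 ± 0.79, edgeR adjusted p = 0.738). Ccl20 had 66.0, 186, 654 and 78.5 in ileum of day 4 and 13.6, 70.8, 16.7 and 54.4 on day 8 (-2.54 ± 0.84, edgeR adjusted p = 0.0832). On day 12 the range in ileum was 11.3 to 71.4. The test of whether the change from day 4 to day 12 differed between segments called 0 members and 0 of 11842 genes. At an unadjusted p under 0.05 it found 1 member (Ccl25) and 739 genes.

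Of the chemokine ligand genes called between colon and ileum, most were higher in ileum. On day 4, 3 of 28 were lower in colon and 0 higher, beside 2.66% and 0.524% of all genes. On day 8, 8 were lower and 1 higher (18.3% and 16.7% of all genes), and on day 12, 10 were lower and 1 higher (17.2% and 15.3%). In either direction, 10.7%, 32.1% and 39.3% of tested members were called on days 4, 8 and 12. Beside them stood 377, 4144 and 3846 of 11842 genes, a like share on day 8. The median log2 difference of colon from ileum was -1.19, -1.47 and -1.30 over the tested members and -0.04, -0.05 and -0.01 over all genes. Of the day 4 calls, each was lost when any 1 colon library or ileum replicate 1 or 4 was left out (edgeR adjusted p = 0.0818-0.197). With transfer experiment as a block the day 4 count was 5 of 28, beside 1265 of 11842 genes, and with the ileum libraries of experiment 2 alone it was 7 of 28, beside 3069 of 11842 genes, a like share. The share of called genes higher in colon on day 8 moved from 47.8% to 66.2% with library totals as the scale, and the pan-leukocyte scale moved the all-gene medians to 1.96, 2.08 and 2.27.

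Ccl25 and Ccl5 were the members called on all 3 days together with Cxcl9. Ccl25 had 69.9, 145 and 128 normalized reads in colon of day 4 and 1142, 74.7, 249 and 1013 in ileum, where the low pair was the experiment 1 libraries with colonic enterocyte markers. On day 8 it had 47.3, 62.6 and 50.3 in colon against 1212, 944, 2189 and 646 in ileum, and on day 12 64.2, 99.6, 81.6 and 92.4 against 792, 2920, 2389 and 1547. The groups were apart on days 8 and 12, with log2 differences of -2.51 ± 0.62 (SE, edgeR adjusted p = 0.0389), -4.81 ± 0.69 (edgeR adjusted p = 0.000142) and -4.57 ± 0.59 (edgeR adjusted p = 0.000141) on days 4, 8 and 12. Without the experiment 1 libraries the day 4 value was -3.28 (edgeR adjusted p = 3.37e-05). Under pan-leukocyte scaling the day 4 value shrank to -0.19 (edgeR adjusted p = 0.793), and those of days 8 and 12 still passed. Small-intestinal enterocyte markers, whose cells are a known source of Ccl25, summed to 1118-6592 normalized reads in colon and 2767-13136 in ileum, and the part of such cells was not tested.

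Ccl5 (RANTES; NM_013653, chr11:83339281-83344020), a CC chemokine made by T cells and other cells, was near the graft level in colon throughout. Colon had 8.96, 41.5 and 18.3 normalized reads on day 4, 6.75, 23.5 and 42.1 on day 8 and 17.5, 12.5, 3.65 and 77.5 on day 12. Ileum had 677, 32.0, 18.4 and 499 on day 4, 718, 351, 351 and 663 on day 8 and 177, 455, 679 and 617 on day 12. Only the experiment 1 libraries of ileum day 4 fell within the colonic range, and they were also the ileum libraries with the fewest T cell marker reads, 38.4 and 27.6 normalized reads against 253-1037 in the others. They were likewise the lowest ileum libraries in B and plasma cell (4733 and 3281), endothelial (196 and 267) and Paneth cell markers (3343 and 6884). In epithelial markers (87417 and 84419) they were the highest. The part of any of these cells in the Ccl5 levels was not tested. The differences of colon from ileum were -3.90 ± 1.01 (edgeR adjusted p = 0.0435), -4.58 ± 0.99 (edgeR adjusted p = 0.00149) and -4.16 ± 0.85 (edgeR adjusted p = 0.00119). Cxcl9 differed by -3.55 ± 0.99, -3.17 ± 0.92 and -3.11 ± 0.78 on the 3 days (edgeR adjusted p = 0.0491, 0.0104 and 0.00437). It had 19.7, 23.7 and 42.7 normalized reads in colon of day 4 and 499, 47.0, 184 and 563 in ileum. Pan-leukocyte scaling ended the Ccl5 call of day 4 (-1.61, edgeR adjusted p = 0.134) and all 3 Cxcl9 calls (-1.19, -0.53 and -0.79, edgeR adjusted p = 0.0791, 0.418 and 0.168).

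Other members passed on day 8, day 12 or both. Cxcl14, a CXC ligand expressed by epithelium and stroma, had 27.0, 10.4 and 18.7 normalized reads in colon of day 8 and 415, 337, 331 and 343 in ileum (-4.56 ± 0.91, edgeR adjusted p = 0.000843), and -2.93 ± 0.70 on day 12 (edgeR adjusted p = 0.00307). Ccl24 had 81.0, 99.2 and 32.8 in colon of day 8 and 1111, 1625, 1138 and 255 in ileum (-4.13 ± 1.08, edgeR adjusted p = 0.00541). On day 12 it differed by -3.11 ± 0.90 (edgeR adjusted p = 0.0115), which without ileum replicate 1, at 2375 normalized reads, was -1.43 (edgeR adjusted p = 0.19). Cxcl16 was lower in colon on days 8 and 12 (-1.76 ± 0.60, edgeR adjusted p = 0.0263 and -1.62 ± 0.54, edgeR adjusted p = 0.0243), Pf4 on day 8 (-1.58 ± 0.56, edgeR adjusted p = 0.0329) and Ccl9 on day 8 (-1.34 ± 0.51, edgeR adjusted p = 0.0448), but with pan-leukocyte scaling these became 0.44 and 0.62, 0.65 and 1.14. Ccl3, Ccl4 and Cxcl10 were lower in colon on day 12 (-1.71 ± 0.58, -1.74 ± 0.63 and -2.02 ± 0.75, edgeR adjusted p = 0.0261, 0.0367 and 0.0411), and the same scaling turned them to 0.74, 0.77 and 0.51. On that scale the day 12 values of Cxcl14 and Ccl24 shrank to -0.74 and -0.77 (edgeR adjusted p = 0.389 and 0.218), while their day 8 calls held. The turned values lay below the all-gene medians of 2.08 and 2.27 on that scale. Ccl22, a CCR4 ligand that falls outside the rule for named genes and was chosen after its values were seen, passed on day 12 with 677, 7.52, 2.60 and 4.44 in ileum against 13.6, 24.9, 8.53 and 0 in colon, a difference carried by 1 library.

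Several of these calls rested on single libraries. Ileum day 12 replicate 1 carried much of the inflammatory difference on that day, and without it Ccl3, Ccl4, Cxcl10 and Cxcl16 stood at -1.16, -1.07, -0.61 and -1.04 (edgeR adjusted p = 0.14, 0.215, 0.544 and 0.151). The same 4 calls were lost without colon day 12 replicate 1 (edgeR adjusted p = 0.0595, 0.0648, 0.0768 and 0.0717) and without colon replicate 3 (0.0857, 0.107, 0.123 and 0.0813). Without colon replicate 4, Ccl4, Cxcl10 and Cxcl16 no longer passed (edgeR adjusted p = 0.0868, 0.111 and 0.0729), nor did Ccl4 without ileum replicate 4 (edgeR adjusted p = 0.0507). On day 8 Pf4 stood at -1.04 without ileum replicate 2 (edgeR adjusted p = 0.154), the library with 5050 normalized reads, and the Pf4 and Cxcl16 calls ended without colon replicate 3 or 4 (edgeR adjusted p = 0.111-0.147). The Cxcl16 call on day 8 also ended without ileum replicate 1 or 2 (edgeR adjusted p = 0.0554 and 0.0552). The Ccl9 call on day 8 ended when any library but ileum replicate 4 was left out (edgeR adjusted p = 0.0681-0.146). Adding back the colon day 8 library of experiment 1, which the fit left out, moved the day 8 values of Cxcl16 and Pf4 to -0.18 and -0.52 (edgeR adjusted p = 0.875 and 0.565) and ended the day 8 calls of Cxcl9 (-2.22, edgeR adjusted p = 0.0638) and Ccl24 (-2.68, edgeR adjusted p = 0.0524). It also ended the 3 day 4 calls (edgeR adjusted p = 0.0762-0.105) and the day 12 calls of Ccl3, Ccl4, Cxcl10, Cxcl16 and Cx3cl1 (edgeR adjusted p = 0.143, 0.159, 0.0812, 0.0862 and 0.0533). Among the graft comparisons it ended the calls of Ccl4 and Cxcl10 in colon of day 12 and of Ccl2 and Ccl3 in ileum of day 12 (edgeR adjusted p = 0.0598, 0.0674, 0.0781 and 0.163).

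Cx3cl1 was the one tested member called higher in colon. Cx3cl1 had 253, 381 and 315 normalized reads in colon of day 8 and 70.5, 84.3, 40.2 and 68.0 in ileum (1.96 ± 0.44, edgeR adjusted p = 0.00213), and 376, 206, 116 and 137 against 40.8, 135, 57.2 and 87.2 on day 12 (1.21 ± 0.40, edgeR adjusted p = 0.0256). The day 12 groups overlap, and that call ended without colon replicate 1 (0.89, edgeR adjusted p = 0.117), ileum replicate 1 (1.02, edgeR adjusted p = 0.0796) or ileum replicate 3 (1.06, edgeR adjusted p = 0.0749). On day 4 colon had 342, 187 and 240, and ileum 79.2 and 57.1 in experiment 2 but 213 and 203 in experiment 1. Epithelial markers moved beside it, at 70433-108897 normalized reads in colon and 84419 and 87417 in those experiment 1 ileum libraries, against 12773-32650 in the remaining ileum libraries. Within the 6 pairs of day and experiment that held both segments, all colon libraries lay above all ileum libraries for Cx3cl1 and Ccl27a in 6 of 6 and for Ccl20 and Cxcl13 in 5 of 6. All ileum libraries lay above all colon libraries in 6 of 6 for Ccl25, Ccl5, Ccl4 and Cxcl3, and in 5 of 6 for Ccl2, Ccl3, Ccl24, Cxcl9, Cxcl14, Cxcl16, Pf4 and Xcl1. On day 12 experiments 1 and 3 held 1 library per segment, and on day 8 experiment 2 held 1 colon library. Where both sides are single libraries, any difference counts as separation. These counts only describe the members, and no share over all genes stands beside them. Cxcl3, Cxcl13 and Xcl1 were not tested. In these pairs colon means were 1.65-8.39 for Cxcl3 and 0-5.84 for Xcl1, near the floor.

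**Figure D3:**
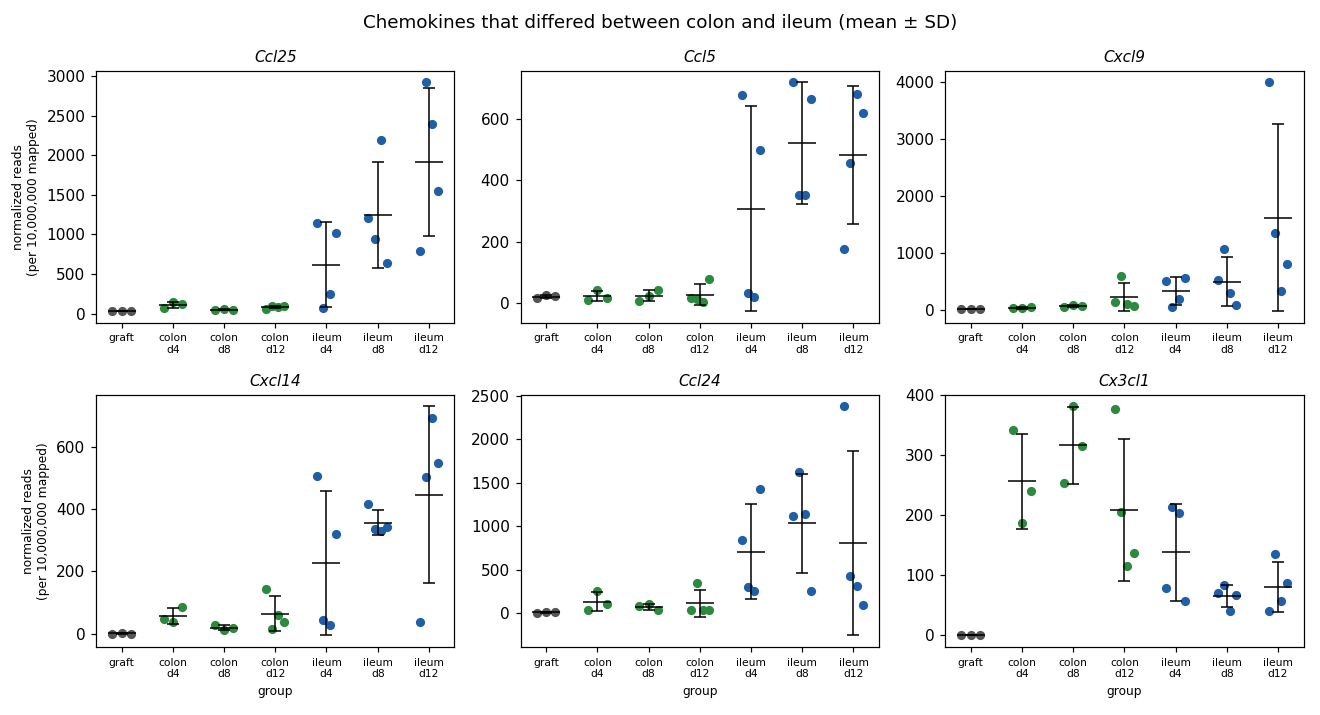
Normalized reads per 10000000 mapped reads (y axis) of Ccl25, Ccl5, Cxcl9, Cxcl14, Ccl24 and Cx3cl1 in colon and ileum by day, with the graft (x axis). Points are libraries and bars the mean ± SD. Ccl25 and Ccl5 lie above every colon library in ileum on days 8 and 12, Ccl5 lies near the graft level in colon, and Cx3cl1 lies higher in colon on day 8 without overlap.

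Some libraries held more macrophage and pan-leukocyte markers and fewer fibroblast and epithelial markers than the others of their group. Their chemokine ligand genes differed in 2 directions. Ileum day 12 replicate 1 had macrophage markers at 103356 normalized reads against 28867-36969 in the other 3, and fibroblast markers at 199 against 3152-4634. It held the highest Cxcl10 (7627), Cxcl9 (3989), Cxcl2 (4727), Cxcl16 (3962), Ccl3 (2047) and Ccl24 (2375) of its group. It also held the lowest Ccl21a (27.2 against 361-822), Ccl11 (2.26), Cxcl14 (38.5 against 504-694) and Cxcl12 (88.3 against 180-203). Colon day 12 replicate 2 was placed likewise in its group, with macrophage markers at 21489 against 6555-9207, fibroblast markers at 467 against 1558-4667, Cxcl10 at 1853, Cxcl2 at 3014 and Cxcl16 at 1622, and with Ccl21a at 34.3, Cxcl12 at 28.0 and Cxcl14 at 15.6, the lowest of its group. The colon day 8 library of experiment 1, which the study's list does not hold and the fit did not use, had macrophage markers at 82452 and fibroblast markers at 67.1, with Cxcl2 at 8850, Ccl3 at 5381, Ccl4 at 4200 and Cxcl16 at 4033, no count of Ccl21a and 13.4 of Cxcl12. Ccl6 did not follow the macrophage markers in these libraries, at 1243, 928 and 510 normalized reads. In the same order, epithelial markers summed to 12773, 70433 and 42742, the lowest of each group. Pan-leukocyte markers summed to 18334, 4468 and 11877, the highest of each group. The part of each kind of cell was not tested.

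Colonic progeny of CX3CR1-DTR recipients were set beside the graft and colon of day 12 in a second fit of 13 libraries, which tested 26 members among 11718 genes. Values are counts per 10000000 reads on genes here, with a floor of 7.11 to 24.51 in the CX3CR1-DTR libraries. Kind of recipient, day and table of counts differ together and cannot be told apart. Ccl20, Cxcl11 and Cxcl12 had another transcript identifier in the CX3CR1-DTR counts, and its part in their values was not tested. Relative to the graft 15 members were higher and 2 lower, beside 39.5% and 36.0% of all genes, with a median log2 difference of 3.88 against 0.13 over all genes. In all, 17 of 26 members were called, beside 8847 of 11718 genes. Members without counts in the graft could enter this fit only through colon libraries in which they were high. These counts and this median therefore describe the members and support nothing. Relative to colon of day 12, 2 were higher and 14 lower, beside 25.2% and 35.4% of all genes, with a median of -1.54 against -0.11. The 2 comparisons share a fit and the first shares its graft with those above. Epithelial markers summed to 126803-184577 and pan-leukocyte markers to 1101-3497 in CX3CR1-DTR libraries, against 119561-150964 and 2189-7585 in colon of day 12. Replicate 1 stood apart in several members, with the lowest Ccl6 (327) and the highest Cxcl1 (81.7) and Cxcl14 (490) of the 6.

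Cx3cl1, the ligand of the receptor that marks the depleted cells, was higher in CX3CR1-DTR colon. Its lowest, median and highest of the 6 libraries were 960, 1112 and 1306 normalized reads, against 550, 349, 206 and 243 in the 4 of colon day 12, with no overlap (log2 1.72 ± 0.26, edgeR adjusted p = 8.15e-05). Ccl27a, an epithelial ligand of CCR10, was the other higher member, with 119, 167 and 200 against 65.5, 74.0, 86.9 and 106 (0.94 ± 0.26, edgeR adjusted p = 0.0063), and it was chosen after its values were seen. Ccl27b, grouped with it as a CCR10 ligand and not tested, went the other way, at 0 to 9.1 against 28.5, 31.7, 30.4 and 55.7. The part of read assignment between Ccl27a and Ccl27b was not tested.

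Among the 14 lower members were the inflammatory Cxcl1, Cxcl2, Cxcl10, Ccl2 and Ccl7. Cxcl1 had 0, 4.83 and 81.7 normalized reads (lowest, median and highest) against 302, 291, 198 and 586 (-4.88 ± 0.76, edgeR adjusted p = 0.000123). Ccl2 had 8.17, 30.2 and 96.6 against 137, 222, 117 and 404 (-2.17 ± 0.57, edgeR adjusted p = 0.00415), again with no overlap. Cxcl2 had 131, 636 and 947 against 2129, 5117, 799 and 1058 (-2.02 ± 0.65, edgeR adjusted p = 0.0154), a call lost without colon day 12 replicate 2 (-1.24, edgeR adjusted p = 0.115), as were those of Cxcl10, Cxcl16 and Ccl24 (-1.08, -0.52 and -0.95). Ccl21a, Ccl11 and Cxcl12, known from lymphatic and stromal cells, were also among the 14. Ccl21a had 0, 7.96 and 24.5 against 650, 58.1, 493 and 267 (-5.50 ± 0.74, edgeR adjusted p = 3.76e-05), Ccl11 was at or under 3 counts in each CX3CR1-DTR library (at least 6.01-fold lower), and Cxcl12 had 8.17, 48.6 and 206 against 672, 47.6, 274 and 489 (-2.14 ± 0.65, edgeR adjusted p = 0.0109). Ccl21b and Ccl21c, also among the 14, each had 0 to 141 against 1034, 132, 471 and 440, which overlap. The part of read assignment between the Ccl21 copies was not tested. Cxcl14, also expressed by stroma, did not pass (0.62 ± 0.62, edgeR adjusted p = 0.407). Fibroblast markers summed to 706-4814 and 793-6833 in the 2 groups, and the 4 endothelial markers to 460-2451 and 396-1155. The part of such cells was not tested. Ccl25 was lower without overlap (16.3, 73.0 and 79.8 against 94.0, 169, 146 and 164, -1.26 ± 0.35, edgeR adjusted p = 0.00638), and small-intestinal enterocyte markers summed to 116-264 against 1718-11752. Ccl20 was lower as well (-2.14 ± 0.67, edgeR adjusted p = 0.0143), but not without colon day 12 replicate 1 (-1.72, edgeR adjusted p = 0.0624). For Ccl20 and Cxcl12 the transcript identifier also differed between the recipients, as given above. Pan-leukocyte scaling, which moved the all-gene median to 0.80, ended several of these calls. Ccl25 stood at -0.26 (edgeR adjusted p = 0.679), Cxcl16 at -0.06, Cxcl10 at -0.60 and Cxcl2 at -0.66 (edgeR adjusted p = 0.893, 0.37 and 0.327), and Ccl2, Ccl20, Ccl24 and Cxcl12 at -1.28, -1.30, -1.18 and -1.37 (edgeR adjusted p = 0.0759, 0.0989, 0.0991 and 0.0953). The calls of Cx3cl1, Cxcl1 and Ccl21a held on that scale.

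Pf4 did not pass between the recipients, with 1725, 2268 and 2403 normalized reads against 980, 3468, 1188 and 2896 (0.00 ± 0.34, edgeR adjusted p = 0.999). Ccl6 ranged from 327 to 7077 with a median of 4119 against 2778, 1575, 2296 and 2550 (0.77 ± 0.51, edgeR adjusted p = 0.206), and against the graft its difference was -0.62 ± 0.54 (edgeR adjusted p = 0.302). Ccl9 was again lower than in the graft (136, 230 and 395 against 6009, 7944 and 4373, -4.34 ± 0.30, edgeR adjusted p = 1.07e-08), and so was Ccl2 (-1.70 ± 0.61, edgeR adjusted p = 0.02), yet pan-leukocyte scaling turned these to 0.74 and 3.28 where the all-gene median was 5.24. The Ccl2 call rested on graft replicate 1, at 380 normalized reads (-0.86, edgeR adjusted p = 0.253 without it). The rises of Cxcl1, Cxcl9 and Ccl21b from the graft (4.83 ± 2.05, 2.86 ± 1.04 and 6.78 ± 2.44, edgeR adjusted p = 0.048, 0.0223 and 0.023) were each lost without at least 1 graft library, as in the Cxcl1 value of 4.79 (edgeR adjusted p = 0.101), the Cxcl9 value of 2.77 (edgeR adjusted p = 0.0664) and the Ccl21b value of 6.73 (edgeR adjusted p = 0.0577). The rise of Cxcl1 also ended without CX3CR1-DTR replicate 1, 2 or 3 (edgeR adjusted p = 0.0567, 0.0596 and 0.0578) and that of Ccl21b without replicate 2 (5.95, edgeR adjusted p = 0.0536).

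**Figure D4:**
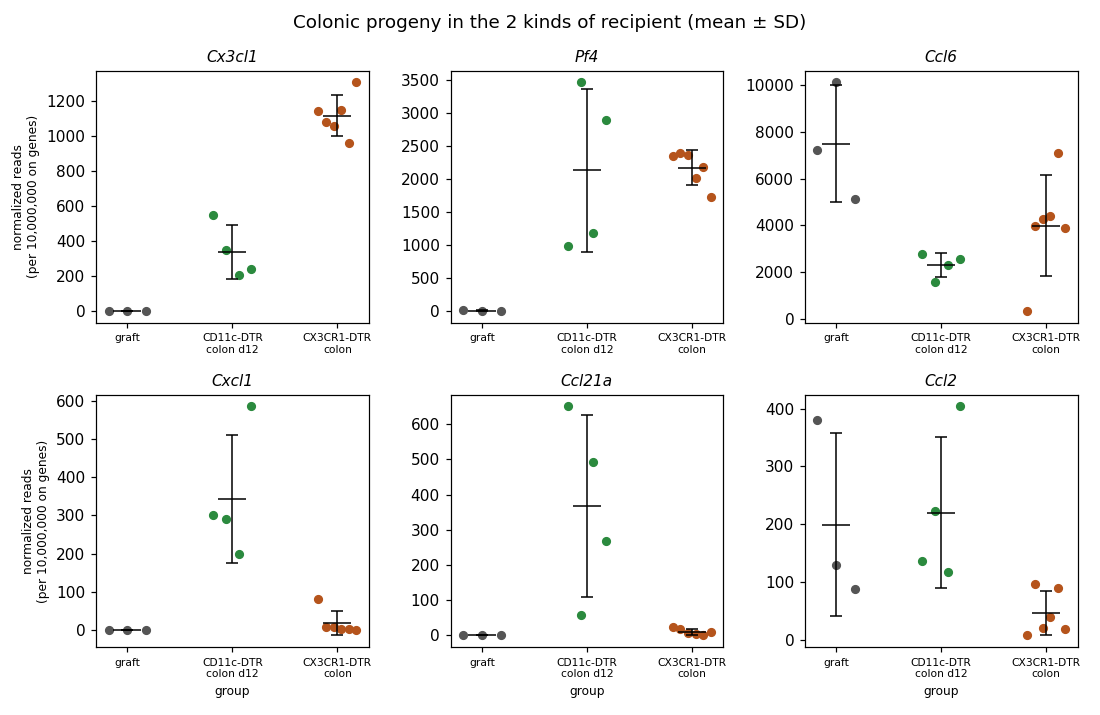
Normalized reads per 10000000 reads on genes (y axis) of Cx3cl1, Pf4, Ccl6, Cxcl1, Ccl21a and Ccl2 in the graft, in colon of day 12 of CD11c-DTR recipients and in colon of CX3CR1-DTR recipients (x axis). Points are libraries and bars the mean ± SD. Cx3cl1 is highest in the 6 CX3CR1-DTR libraries, Cxcl1, Ccl21a and Ccl2 lie below every colon day 12 library there, and Pf4 overlaps between both kinds of recipient.

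The receptors of these ligands were followed as a fixed list of 23 genes, 11 of which were tested in CD11c-DTR libraries. Ccr2, the receptor by which monocytes leave the marrow, had 4611-6535 normalized reads in the graft and 59.1-196 in colon of day 4 (log2 -5.35 ± 0.81, edgeR adjusted p = 5.01e-06). In all, 3 receptors rose and 3 fell from the graft to colon of day 4, 6 and 1 to ileum of day 4, 2 and 2 to colon of day 12 and 8 and 1 to ileum of day 12. Over all genes 35.9% rose and 24.5% fell, 36.2% and 20.5%, 37.7% and 24.9%, and 35.9% and 20.0% in these comparisons. None differed between successive days, and colon was lower than ileum in 4, 6 and 8 of 11 on days 4, 8 and 12 and higher in 0, beside 2.66%, 18.3% and 17.2% of all genes lower and 0.524%, 16.7% and 15.3% higher. Ccr9, the receptor of CCL25, was lower in colon on all 3 days, with means of 21.0 ± 17.5, 8.28 ± 12.2 and 9.92 ± 6.49 normalized reads against 254 ± 270, 244 ± 147 and 367 ± 178 in ileum (SD, n = 3 to 4; edgeR adjusted p = 0.0463, 0.00229 and 0.000577). Cx3cr1 was likewise lower in colon, with 225 ± 88.0, 267 ± 152 and 350 ± 223 against 984 ± 455, 837 ± 518 and 1286 ± 367, the reverse order of its ligand Cx3cl1. In CX3CR1-DTR colon, where 9 receptors were tested, Cx3cr1 was lower than in colon of day 12 (80.2 ± 36.9, n = 6, against 598 ± 392, n = 4, per 10000000 reads on genes, -2.97 ± 0.42, edgeR adjusted p = 2.65e-05), as was Ccr1. Ccr10 and Cxcr4 were higher there. Whether these receptor differences held under pan-leukocyte scaling was not tested.

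The 12 members that were not tested reached at most 170 normalized reads, in Ccl17 of ileum day 12 replicate 1. Ccl17 is a CCR4 ligand of dendritic cells and macrophages. Xcl1, the XCR1 ligand of lymphocytes, peaked at 82.5 in ileum day 4 replicate 1, the library with the highest T cell markers (1037). Cxcl11 peaked at 56.6, Cxcl3 at 57.2, Ccl27b at 44.5 and Cxcl13, which draws B cells into follicles, at 37.1. Ccl19 reached 18.8, while Ccl26 and Ccl28 had no count in the 25 libraries, which allows up to 3.51 to 27.65 normalized reads each by library. Ccl1, Ccl26, Ccl28 and Cxcl15 never had more than 3 counts. Ccl28 is placed on unlocalized sequence of chromosome 13 in mm9, and whether unique mapping there sets its count was not tested.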

How the data were processed

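Per the study's methods, RNA was sequenced with a derivative of MARS-seq on a NextSeq 500, reads were aligned to mm9 with HISAT (0.1.6 in the submitters' processing notes), and only unique alignments were retained. Per the file headers, the deposited values are counts that the authors made with HOMER on exons of the sense strand, with 1 transcript per gene and no normalization. Collapse of molecular identifiers is not given in the sources used here. In the table with CX3CR1-DTR libraries, 52 unnamed columns were not used.

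Groups came from the sample labels. Colon day 8 replicate 1 (experiment 1) was left out of the fit, since the study lists 3 libraries whose names match the others. For CX3CR1-DTR recipients the study's list gives 4 repeats and the labels 6 libraries, which could not be matched, and the fit held all 6. Experiments were read from dates in the labels, with 1 year taken as a slip. Libraries were numbered in the order of the record. Fits used edgeR 4.0.16 (TMM, glmQLFit, glmQLFTest) in R 4.3.3 with DESeq2 1.42.0 as an alternative, and an adjusted p under 0.05 passed. The first fit held 25 libraries and 7 groups and the second 13 libraries, and both were tested on simulated data. Of 48 pairs of libraries within groups none was a duplicate (smallest chi-square per degree of freedom 5.2). Experiments pair the libraries by their labels, and the median correlation of deviations was 0.02 for 96 pairs of the same experiment and -0.01 for 171 pairs of different ones. Floors and limits cover counting error only.

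Values per library were given for the 23 members that passed in 1 or more comparisons and averaged 200 or more normalized reads in their highest group, and other members by range. The members, gene lists and marker lists were chosen with earlier results of these data known. Alternatives were size factors, library totals, pan-leukocyte scaling, no filter, DESeq2, an equal-variance test per gene on log2(normalized reads + 50), the experiment block, other choices of libraries, and each library left out. Python 3.11.15, pandas 2.3.3, numpy 2.4.6 and matplotlib 3.10.9 were used. Some results for 1 receptor are not reported here.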

Additional observations from a re-analysis of the deposited data

Results flagged for a closer look

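In groups of 4 to 6 libraries, 16 of 115 tested sets of values had a library whose distance from its nearest neighbour was large for the range of its group. For independent sets chance gives about 1 in 20. These sets share their libraries and are not independent, so that rate cannot judge the number found. Ileum day 4 replicate 3, an experiment 1 library, was far above the others in Ccl4 (1558 normalized reads), Ccl8 (525), Ccl9 (608) and Cxcl2 (3557). Ileum day 12 replicate 1 was far above in Ccl24 (2375), Cxcl16 (3962) and Cxcl2 (4727), and replicate 4 of that group in Ccl9 (393). Colon day 12 replicate 2 was far above in Ccl24 (349) and Cxcl9 (589). In ileum of day 8, replicate 4 was low in Ccl12 (23.8) and replicate 1 high in Cxcl14 (415). In CX3CR1-DTR colon, on the scale of reads on genes, replicate 1 was far above in Cxcl1 (81.7) and Cxcl14 (490), and replicate 5 in Ccl20 (71.1) and Ccl24 (87.7).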

How the results depend on the processing

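Of 2160 alternatives run on 130 results for 23 named members, 1951 kept direction and call, 195 kept direction and lost the call, and 14 changed sign, all 14 under pan-leukocyte scaling. The equal-variance test per gene lost 49 calls, the most of any setting. It called 13 members in graft to ileum day 4 and 18 in graft to ileum day 12. In colon against ileum it called 0 on day 4 and 2 on day 12, and in graft to CX3CR1-DTR colon 11. Over all genes it called 4893, 6885, 0 and 2508 of 11842 and 8205 of 11718 in the same order. DESeq2 called 1 in ileum day 4 to day 8 and 9 in colon against ileum on day 4, beside 994 and 1080 of 11841 genes. The replicate block of transfer experiments gave 5 on day 4, 10 on day 8 and 10 on day 12 in colon against ileum. Over all genes it gave 1265, 4133 and 3917 of 11842. Beside Ccl25 and Cxcl10 in graft to colon day 12 (1.47 and 1.90) the block ended no call of a named member. The comparisons with CX3CR1-DTR libraries have no block fit, since their labels give no experiment. With all 4 colon day 8 libraries the counts of colon against ileum were 0 on day 4, 6 on day 8 and 5 on day 12. Over all genes they were 7, 3022 and 3312 of 11842. With ileum day 4 of experiment 2 alone the day 4 count was 7, beside 3069 of 11842 genes. With the compared groups alone the count was 0 on day 4 and 14 on day 8, beside 0 of 11836 and 3767 of 11838 genes. Pan-leukocyte scaling, chosen after seeing the data, gave 7 on day 4, beside 9455 of 11842 genes, 9435 of them higher in colon. Between the recipients it gave 9, beside 7230 of 11718 genes. Its reversed values were 2.99, 0.69, 2.90 and 0.43 for Ccl6 (graft to colon and ileum on day 4, then day 12), 0.12 for Ccl9 in colon day 4, 1.14, 0.44 and 0.65 for Ccl9, Cxcl16 and Pf4 between segments on day 8, 0.74, 0.77, 0.51 and 0.62 for Ccl3, Ccl4, Cxcl10 and Cxcl16 on day 12, and 3.28 and 0.74 for Ccl2 and Ccl9 in graft to CX3CR1-DTR colon. Leaving out 1 library gave 0 to 8 calls between segments on day 4, 6 to 15 on day 8 and 4 to 12 on day 12, 0 to 1 in ileum day 4 to day 8, 18 to 21, 23 to 26, 21 to 23 and 25 to 28 from the graft to colon and ileum of day 4 and of day 12, 13 to 19 from the graft to CX3CR1-DTR colon and 12 to 19 between recipients. No share over all genes is given for the fits without 1 library, and the cause of these shifts was not tested. Levels near the floor of 3 counts are limited by depth.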
